A study of Mus musculus with 18 samples.

Results

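Glucose enters cells through facilitative transporters of the Slc2a family and is committed to glycolysis by phosphofructokinase. The genes described here are 9 of the 22298 genes of the mRNA table: the transporter genes Slc2a3, Slc2a5, Slc2a8 and Slc2a1, the phosphofructokinase genes Pfkm, Pfkl and Pfkp, and the regulatory enzyme genes Pfkfb3 and Pfkfb4. They were chosen by symbol, starting from Slc2a3 and Pfkm, whose levels had been found lower in knock-in testis, with 7 sister genes set beside them. The difference between the genotypes is therefore given for these genes as a description, with intervals and without p-values. The intervals take no account of this choice, so for Slc2a3 and Pfkm the size of the fall may be overstated. All 9 genes were found by their symbols, each in 1 row, and all 9 were among the 15787 genes with enough counts to be tested.

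RNA was sequenced from whole testes of adult C57BL/6 mice, from 3 libraries with a knock-in allele of Taf7l, a germ-cell gene related to the TFIID component Taf7, and 3 libraries of wild-type mice. The sample titles do not say what the knock-in allele alters. The labels do not say which libraries came from separate animals, so the spread between libraries may be partly technical. A further 12 samples of isolated pachytene spermatocytes and round spermatids, of both genotypes, were not analysed here. The mRNA table held between 17431309 and 21446420 counts per library, and the ranges of the knock-in and wild-type libraries overlapped.

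Taf7l itself had 26.0, 27.2 and 27.3 CPM in the knock-in libraries, against 27.7, 29.1 and 30.2 CPM in the wild-type libraries (log2 fold change -0.11 ± 0.08 SE; edgeR, adjusted p = 0.632). CPM are counts relative to the library total, scaled between libraries by TMM. A knock-in allele need not alter transcript amount, and the labels are not checked by it. Markers of 10 cell types of the testis were looked up, and no measured gene of these lists was at 0 in all libraries. The summed markers of 3 lists did not overlap between the genotypes: peritubular myoid cells had 223 to 256 CPM in knock-in and 186 to 214 CPM in wild-type libraries, spermatogonia 624 to 656 CPM in knock-in and 571 to 615 CPM in wild-type libraries, and pachytene spermatocytes 2725 to 2820 CPM in knock-in and 2430 to 2636 CPM in wild-type libraries. Of the myoid genes all 6 of 6 had a log2 fold change above 0, of the spermatogonial genes 2 of 7 tested, and of the pachytene genes 6 of 8. None of these genes was called, and among the other 7 lists, whose sums overlapped, 2 elongating spermatid genes were called higher. As a scale, 18.5% of single genes tested did not overlap between the genotypes, and nothing is read from the number of lists. The part of the marker differences in the results below was not tested. In whole tissue, fewer cells of a type and less RNA per cell cannot be told apart.

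As background, germ cells beyond the blood-testis barrier are supplied largely with lactate and pyruvate that Sertoli cells make from glucose, while sperm themselves run glycolysis along the flagellum. GLUT3, encoded by Slc2a3, is a high-affinity glucose transporter of neurons and sperm, and GLUT5, encoded by Slc2a5, carries fructose. Phosphofructokinase works as a tetramer of muscle (Pfkm), liver (Pfkl) and platelet (Pfkp) subunits, and PFKFB enzymes make and degrade the fructose bisphosphate that activates it.

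The counts give 1 value per gene, whereas RefSeq places 4 start sites for Pfkm on the plus strand of chromosome 15, spread over 19471 bases. Windows upstream of annotated start sites were held for 8 of the 9 genes, 12 windows in all (RefSeq, GRCm38.p6). The gene without a window was Slc2a3, so the motif counts below do not cover it. Since TFIID binds core promoters, the 100 bases before 3 Pfkm starts and before the single starts of its sister genes are shown here, 5′ to 3′ on the strand of the gene. The third Pfkm start lies 85 bases past the second, and its window, which overlaps that of its neighbour, is not printed. Capitals mark matches on either strand to the TATA box (TATAAA). They also mark the CCAAT box, spelled as named, and the GC box (GGGCGG).
Pfkm, chr15:98092489-98092588, plus strand: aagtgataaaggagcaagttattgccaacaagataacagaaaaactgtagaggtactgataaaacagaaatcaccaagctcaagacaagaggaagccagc
Pfkm, chr15:98108371-98108470, plus strand: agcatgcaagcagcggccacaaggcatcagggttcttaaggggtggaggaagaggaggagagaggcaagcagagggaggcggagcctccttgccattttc
Pfkm, chr15:98111960-98112059, plus strand: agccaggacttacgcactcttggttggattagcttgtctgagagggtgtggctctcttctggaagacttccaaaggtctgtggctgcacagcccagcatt
Pfkl, chr10:78009808-78009907, minus strand: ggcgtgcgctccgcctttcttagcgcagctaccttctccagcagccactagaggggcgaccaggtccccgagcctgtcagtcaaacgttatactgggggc
Pfkp, chr13:6648772-6648871, minus strand: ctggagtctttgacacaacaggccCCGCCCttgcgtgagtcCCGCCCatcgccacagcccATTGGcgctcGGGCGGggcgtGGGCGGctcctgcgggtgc
Within 250 bases upstream, none of the 4 Pfkm windows nor the Pfkl window held any of these 3 motifs, and the Pfkp window held CCAAT and GGGCGG. Across all 32851 RefSeq windows of the same length, 12.4% held TATAAA, 33.8% CCAAT and 32.7% GGGCGG. Among the 12 windows of the genes described, 0 held TATAAA, 3 held CCAAT (Slc2a8, Pfkp and Pfkfb4) and 6 held GGGCGG. The base composition of the Pfkm windows differed, with 36.4% G and C before the first start and 51.2% to 60.4% before the others. The counts do not show which Pfkm start was used in either genotype.

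In knock-in testis the glucose transporter gene Slc2a3 and the muscle phosphofructokinase gene Pfkm were lower, and the log2 fold changes of their 7 sister genes lay between -0.13 (Slc2a1) and 0.16 (Pfkfb4), with intervals that span 0. Slc2a3 (ENSMUSG00000003153, chromosome 6 from 122727809 to 122802363) had 141, 126 and 93.7 CPM in the knock-in libraries, against 203, 205 and 214 CPM in the wild-type libraries. Every knock-in library lay below every wild-type library, and knock-in library 3 was the lowest. Its level was 120.3 ± 24.3 CPM in the knock-in and 208 ± 5.89 CPM in the wild type (mean ± SD, n = 3 each). On the log2 scale the fold change came to -0.79 ± 0.12 (SE, 95% interval -1.06 to -0.52), that is, the level fell by 42.1%. The relative spread was wider among knock-in libraries, with a coefficient of variation of 20.2% against 2.84% in the wild type.

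**Figure D1:**
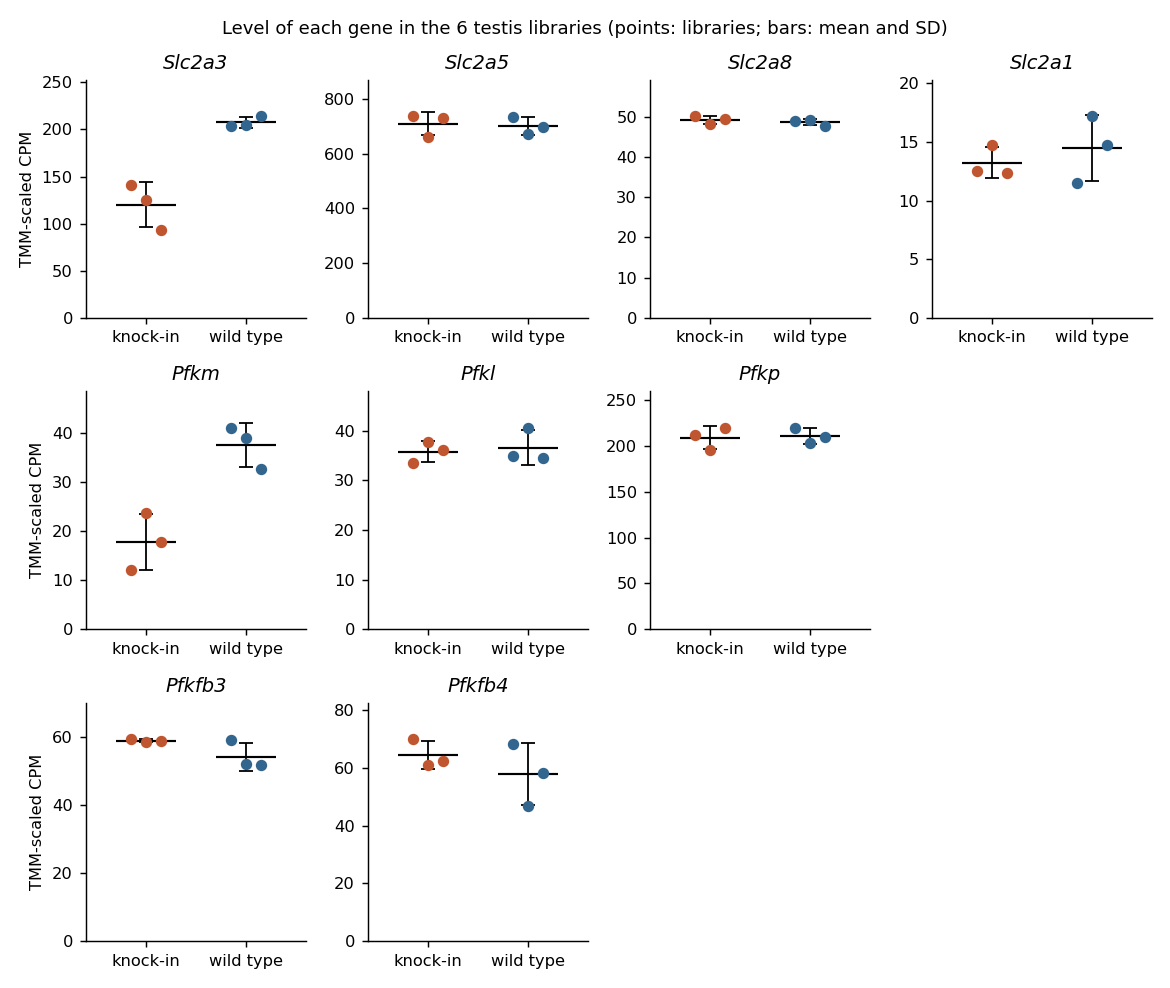
TMM-scaled CPM (vertical axes, each from 0) of the 9 genes in the 3 knock-in and 3 wild-type testis libraries, with points for libraries and bars for the mean and SD. The genotypes do not overlap for Slc2a3 and Pfkm and overlap for the other 7 genes.

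Slc2a5 (ENSMUSG00000028976, chromosome 4 from 150119344 to 150144168), the fructose transporter gene, had 738, 661 and 729.6 CPM in knock-in libraries and 735, 671 and 699 CPM in wild-type libraries. The libraries of the genotypes interleaved, and the log2 fold change was 0.02 ± 0.06 (SE, 95% interval -0.13 to 0.16). Slc2a8 (ENSMUSG00000026791, chromosome 2 from 32972981 to 32982083), which encodes an intracellular transporter abundant in testis, had 50.2, 48.2 and 49.5 CPM in knock-in and 49.0, 49.2 and 47.7 CPM in wild-type libraries. Its log2 fold change was 0.02 ± 0.07 with an interval from -0.13 to 0.17, the libraries again overlapping. Slc2a1 (ENSMUSG00000028645, chromosome 4 from 119108745 to 119137330), the widely expressed GLUT1 gene, was the scarcest, with 12.5, 14.7 and 12.4 CPM in knock-in libraries and 11.5, 17.2 and 14.7 CPM in wild-type libraries. With this spread its log2 fold change of -0.13 ± 0.15 had an interval from -0.48 to 0.21, the widest of the 3 transporter sister genes.

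Pfkm (ENSMUSG00000033065, chromosome 15 from 98092589 to 98132447) had 12.2, 23.7 and 17.8 CPM in the knock-in libraries and 41.2, 39.0 and 32.7 CPM in the wild-type libraries. The genotypes did not overlap, and knock-in library 1 was the lowest. The means were 17.9 ± 5.74 CPM in the knock-in and 37.6 ± 4.42 CPM in the wild type (SD, n = 3 each), with a log2 fold change of -1.07 ± 0.20 (SE, 95% interval -1.51 to -0.63). The level fell by 52.4%, and the coefficient of variation was 32.1% in knock-in and 11.7% in wild-type libraries. Since the lowest knock-in library was number 3 for Slc2a3 and number 1 for Pfkm, their order among the knock-in libraries was not the same.

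Pfkl (ENSMUSG00000020277, chromosome 10 from 77986947 to 78009807), the liver form, had 33.4, 37.8 and 36.05 CPM in knock-in and 34.8, 40.6 and 34.4 CPM in wild-type libraries. Pfkp (ENSMUSG00000021196, chromosome 13 from 6579874 to 6649060), the platelet form, had 212, 195 and 219 CPM in knock-in and 219.7, 203 and 210.0 CPM in wild-type libraries. Both overlapped between the genotypes. The log2 fold changes were -0.03 ± 0.09 for Pfkl (SE, 95% interval -0.24 to 0.17) and -0.01 ± 0.06 for Pfkp (95% interval -0.15 to 0.13).

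Of the enzymes that set the activator of phosphofructokinase, Pfkfb3 (ENSMUSG00000026773, chromosome 2 from 11471430 to 11554071), the inducible form, had 59.4, 58.4 and 58.9 CPM in knock-in and 59.0, 51.9 and 51.8 CPM in wild-type libraries. Pfkfb4 (ENSMUSG00000025648, chromosome 9 from 108988272 to 109032236), the form first known from testis, had 70.0, 61.1 and 62.5 CPM in knock-in and 68.3, 46.8 and 58.4 CPM in wild-type libraries. Wild-type library 1 reached the knock-in range for both genes, and the other wild-type libraries lay below it. The log2 fold changes were 0.12 ± 0.07 for Pfkfb3 (SE, 95% interval -0.05 to 0.28) and 0.16 ± 0.12 for Pfkfb4 (95% interval -0.12 to 0.43).

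**Figure D2:**
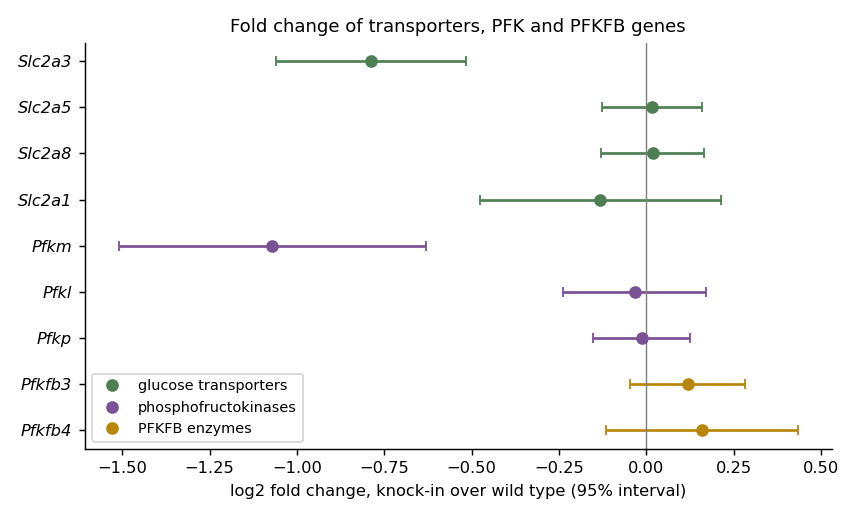
Log2 fold change, knock-in over wild type (horizontal axis), with 95% intervals from edgeR, for each gene grouped by role. The intervals of Slc2a3 (-1.06 to -0.52) and Pfkm (-1.51 to -0.63) lie below 0, and those of the other 7 genes span it. The same contrast chose Slc2a3 and Pfkm, and the intervals take no account of that.

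Of the 9 genes, 2 were called changed at an adjusted p under 0.05, both lower, where 0.982% of the genes tested were called in either direction and 0.101% were called lower. The same 2 genes had libraries that did not overlap between genotypes, against 18.5% of the genes tested. Because that contrast chose Slc2a3 and Pfkm, nothing is read from these counts. Among the 15787 log2 fold changes, ordered from the lowest, Pfkm stood at place 40 and Slc2a3 at place 94, and the other 7 genes lay between the percentiles 20.4 and 78.5. The places of Pfkm and Slc2a3 come from that same contrast, so nothing is read from them either. Leaving out any 1 wild-type library ended the call of Slc2a3, and also that of Pfkm, as did leaving out knock-in library 3 for Pfkm. The log2 fold change then stayed between -0.93 and -0.64 for Slc2a3 and between -1.32 and -0.87 for Pfkm over the 6 fits without 1 library.

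Set directly against its sister genes within each library, Slc2a3 was lower in the knock-in relative to each of them. The log2 ratio of CPM to Slc2a5 was -2.38, -2.39 and -2.95 in the knock-in libraries and -1.85, -1.71 and -1.70 in the wild-type libraries, a difference of -0.82 between the means. To Slc2a8 the difference was also -0.82, and to Slc2a1 it was -0.69. For Pfkm the log2 ratio to Pfkl was -1.42, -0.661 and -0.999 in the knock-in libraries and 0.24, -0.06 and -0.07 in the wild-type libraries, a difference of -1.06, and the difference to Pfkp was -1.08. In none of the 5 pairs did knock-in and wild-type libraries overlap, which follows from the same contrast that chose the 2 genes.

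Levels of different genes were compared per length, as the FPKM that the authors deposited. Slc2a5 stood first among the transporters in the knock-in and Slc2a3 in the wild type. Slc2a3 had 131 ± 22.1 FPKM in the knock-in and 222 ± 4.35 FPKM in the wild type (SD, n = 3 each). Slc2a5 had 195 ± 8.12 FPKM in the knock-in and 188 ± 6.34 FPKM in the wild type, and the libraries of the 2 genes did not overlap within either genotype. Slc2a8 followed with 18.2 ± 0.151 FPKM in the knock-in and 18.0 ± 0.496 FPKM in the wild type, and Slc2a1 with 3.24 ± 0.376 FPKM in the knock-in and 3.48 ± 0.753 FPKM in the wild type. Summed over the 4 transporter genes the level was 348 ± 14.3 FPKM in the knock-in and 431 ± 1.21 FPKM in the wild type. Slc2a3 made up 41.7%, 38.9% and 32.1% of this sum in the knock-in libraries, against 50.2%, 51.8% and 52.5% in the wild-type libraries.

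Among the phosphofructokinases Pfkp led in both genotypes, with 59.5 ± 2.43 FPKM in the knock-in and 60.5 ± 0.887 FPKM in the wild type. Pfkl had 8.36 ± 0.664 FPKM in the knock-in and 9.05 ± 2.86 FPKM in the wild type. Pfkm had 5.26 ± 1.83 FPKM in the knock-in and 10.6 ± 1.19 FPKM in the wild type. In the knock-in each Pfkm value was below each Pfkl value, whereas the values of both genes overlapped among wild-type libraries. The share of Pfkm in the family was 4.77%, 9.59% and 7.11% in the knock-in libraries and 14.1%, 13.7% and 11.9% in the wild-type libraries. The family sum was 73.2 ± 2.95 FPKM in the knock-in and 80.2 ± 2.78 FPKM in the wild type, and Pfkp made up 81.4% of it in the knock-in and 75.6% in the wild type. Pfkfb3 and Pfkfb4 stood close together, Pfkfb3 at 21.2 ± 0.0513 FPKM in the knock-in and 20.1 ± 0.708 FPKM in the wild type, and Pfkfb4 at 19.7 ± 0.285 FPKM in the knock-in and 18.2 ± 2.43 FPKM in the wild type. Their values did not overlap among knock-in libraries and overlapped among wild-type libraries.

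**Figure D3:**
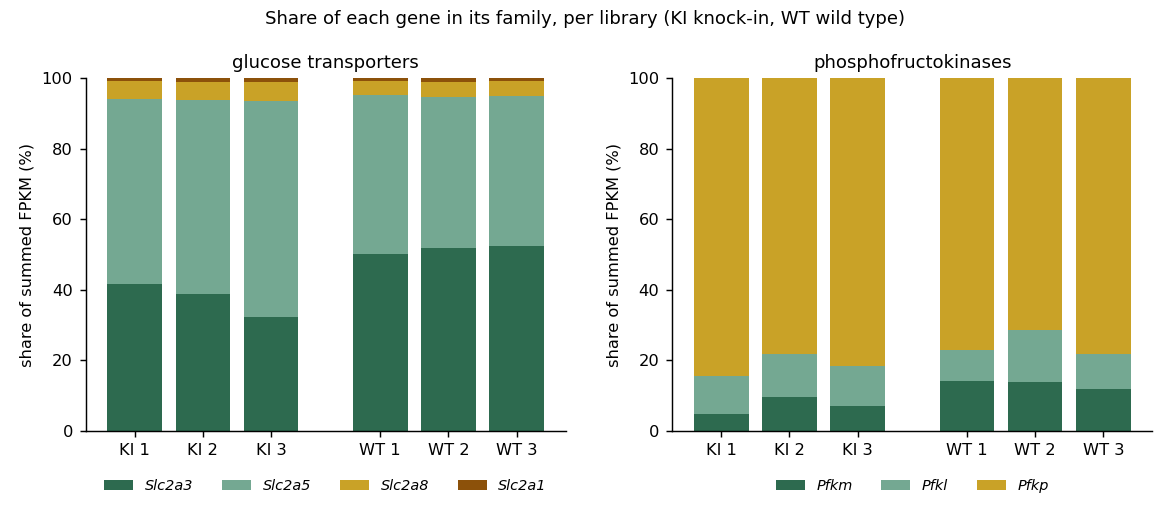
Share of each gene in the summed FPKM of its family (vertical axis, percent) for each of the 3 knock-in (KI) and 3 wild-type (WT) libraries. The transporter genes, among them the fructose transporter gene Slc2a5, are on the left and the phosphofructokinases on the right. Slc2a3 makes up 32.1% to 41.7% of the transporter sum in knock-in libraries and 50.2% to 52.5% in wild-type libraries, and Pfkm 4.77% to 9.59% of the phosphofructokinase sum in knock-in libraries and 11.9% to 14.1% in wild-type libraries. The shares depend on the transcript lengths behind the FPKM.

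These FPKM levels rest on the transcript length the authors used, which can be read back from the ratio of count to FPKM, taking the table's total as the depth. The implied length of Slc2a3 had a median of 929 bases over the 6 libraries, and 3.98% of tested genes had a shorter one, against 3688 bases for Slc2a5, 3529 for Pfkm and a median of 3050 bases over tested genes. The order of Slc2a3 and Slc2a5 by FPKM, the transporter sum and the share of Slc2a3 in it therefore depend on that length. By CPM, which takes no account of length, Slc2a5 stood above Slc2a3 in both genotypes. The means were 709 against 120 CPM in the knock-in and 702 against 208 CPM in the wild type. Within a gene, the longest implied length over the libraries was 1.01 times the shortest for Pfkp and 1.19 times for Pfkfb4, against a median of 1.07 over tested genes. Pfkl varied most among the 9 genes, with 4301, 4371 and 4139 bases in the knock-in libraries and 4807, 3363 and 4478 bases in the wild-type libraries, a ratio of 1.43 that 12.4% of tested genes reached. The Pfkl value of 12.3 FPKM in wild-type library 2, against 7.06 and 7.75 FPKM in the other wild-type libraries, moved with that shorter length, while its CPM there was 40.6 against 34.8 and 34.4.

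Noncoding transcripts carrying the symbols of the 9 genes were looked up in the deposited noncoding table, which the choice of genes did not use but which comes from the same libraries. Slc2a3, Pfkm, Pfkp and Slc2a1 had no such row in the table used here. The other 5 genes had 11 transcripts, of which 5 were at 0 in every library and 4 could be tested. Of the 4, 0 were called by edgeR and 0 by DESeq2, with 1 at an unadjusted p under 0.05 in edgeR, where 0.0968% of noncoding transcripts tested were called. The most abundant, a Pfkfb3 transcript (ENSMUST00000150086), had 684, 701 and 798 counts in knock-in libraries and 641, 596 and 550 counts in wild-type libraries. Scaled between libraries, this transcript had 490 ± 6.84 CPM in the knock-in and 426 ± 20.0 CPM in the wild type (mean ± SD). Its log2 fold change was 0.20 ± 0.08 (SE, 95% interval 0.03 to 0.38; edgeR, adjusted p = 0.473).

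A Slc2a5 transcript (ENSMUST00000151504) was uneven within each genotype, with 124, 298 and 335 counts in knock-in and 209, 178 and 102 counts in wild-type libraries (log2 fold change 0.54 ± 0.35 SE; edgeR, adjusted p = 0.726). A Pfkfb4 transcript (ENSMUST00000198763) was all or nothing, with 0, 74 and 69 counts in knock-in and 0, 70 and 0 counts in wild-type libraries. A second Pfkfb3 transcript (ENSMUST00000140580) had 12, 6 and 12 counts in knock-in and 9, 20 and 22 counts in wild-type libraries (edgeR, adjusted p = 0.692). How the authors shared reads between overlapping transcripts is not given in the sources used here, so values of single transcripts are uncertain.

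Circular RNAs of these genes were close to the detection limit. The circular RNA table held 4 circles from 3 of the genes, with 15 counts in all 6 libraries together. A Pfkm circle of 601 bases (chromosome 15 from 98112154 to 98121362) had 4, 0 and 1 counts in knock-in and 0, 0 and 3 counts in wild-type libraries. It was the only one of the 4 above 0 in at least 3 libraries, and its log2 fold change of 0.51 had an interval from -2.32 to 3.34 (edgeR, adjusted p = 0.979). A Slc2a3 circle of 592 bases had 2 counts in wild-type library 1 and an antisense circle of 212 bases at Slc2a3 had 2 counts in knock-in library 3. A Pfkfb4 circle of 646 bases had counts of 2 and 1 in wild-type libraries 1 and 2. No difference was detectable at this depth: among the 3887 circles tested 0 (0%) were called by edgeR and 0 by DESeq2, and 191 had an unadjusted p under 0.05 in edgeR.

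Around these genes, the wider set for glucose uptake and use was described by 8 lists. Of 97 rows measured, 85 were tested and 0 were called in either direction by edgeR or DESeq2, where edgeR called 0.982% of all genes tested and DESeq2 called 456 of 15787. By the edgeR share, a count of 0 among 85 is near the background. At an unadjusted p under 0.05 in edgeR there were 5 of the 85, against 2040 of all 15787 genes tested. The smallest adjusted p among the 85 was 0.164 (edgeR). The median log2 fold change was -0.02, against 0.0027 over all genes tested, and 38 of the 85 lay above 0 and 47 below.

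Upstream of phosphofructokinase, 7 of 14 other hexose transporters had enough counts to be tested, and their log2 fold changes had -0.20 as median. They were scarce: Slc2a12 had 1.12 ± 0.166 FPKM in the knock-in and 1.31 ± 0.175 FPKM in the wild type (SD, n = 3 each), and the insulin-responsive Slc2a4 and the sodium-coupled Slc5a1 stood below 1 FPKM in every library. Their log2 fold changes were -0.22 ± 0.16 (SE) for Slc2a12, -0.20 ± 0.31 for Slc2a4 and 0.46 ± 0.36 for Slc5a1. Hexokinases and the isomerase that follows them had a median of -0.08 over 6 tested genes. Gpi1, the isomerase, had a log2 fold change of 0.04 ± 0.06 (SE), Hk1, the main hexokinase gene here at 244 ± 20.0 FPKM in the knock-in and 248 ± 3.45 FPKM in the wild type, of -0.18 ± 0.10, and Hk2 of 0.06 ± 0.08. Other enzymes of the turnover of fructose bisphosphates, not only of the activating one, had a median of -0.05 over 5. Among them the bisphosphatase gene Fbp1 had 0.05 ± 0.06, Pfkfb2 -0.05 ± 0.07 and Tigar -0.04 ± 0.10.

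Below phosphofructokinase, the 25 tested rows of the glycolytic list centred on a log2 fold change of 0.02 (median). Aldoa was entered there under different identifiers, with log2 fold changes of 0.13 ± 0.05 and 0.48 ± 0.23 (SE). Ldhc, the germ-cell lactate dehydrogenase, had 2228 ± 140 FPKM in the knock-in and 2505 ± 56.7 FPKM in the wild type (log2 fold change on counts -0.14 ± 0.07 SE), and Gapdhs, the sperm form of glyceraldehyde phosphate dehydrogenase, 0.06 ± 0.07. Pgam2, a phosphoglycerate mutase, had the smallest adjusted p of the 85, with 940 ± 39.5 CPM in the knock-in and 821 ± 14.7 CPM in the wild type and a log2 fold change of 0.20 ± 0.06 (edgeR, adjusted p = 0.164). Lactate and pyruvate transport genes had a median of -0.11 over 7, with Bsg, the partner protein of lactate carriers, at -0.03 ± 0.06, the carrier gene Slc16a7 at -0.11 ± 0.07 and the mitochondrial pyruvate carrier gene Mpc2 at -0.11 ± 0.06.

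In the remaining branches, the median over 5 fructose and sorbitol genes was 0.01 on the log2 scale. Sord, the sorbitol dehydrogenase gene, had 837 ± 30.8 FPKM in the knock-in and 819 ± 20.2 FPKM in the wild type, with log2 fold changes of 0.04 ± 0.07 (SE) for Sord, 0.01 ± 0.06 for the aldose reductase gene Akr1b3 and -0.05 ± 0.06 for Tkfc. Glyctk, named after its values were seen, was the 1 gene of the 8 lists whose call turned on a library: its log2 fold change was -0.82 ± 0.34 (edgeR, adjusted p = 0.341) and, without knock-in library 2, -1.38 (adjusted p = 0.0432). Glycogen and pentose phosphate genes had a median of 0.05 over 15, with 0.04 ± 0.08 for Pgls, -0.02 ± 0.06 for Tktl2 and -0.04 ± 0.08 for G6pd2. Glucose sensing regulators had a median of -0.07 over 15, with -0.12 ± 0.07 for the AMPK subunit gene Prkag2, -0.25 ± 0.09 for Txnip, an inhibitor of glucose uptake (edgeR, adjusted p = 0.277), and 0.04 ± 0.09 for Prkag1.

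**Figure D4:**
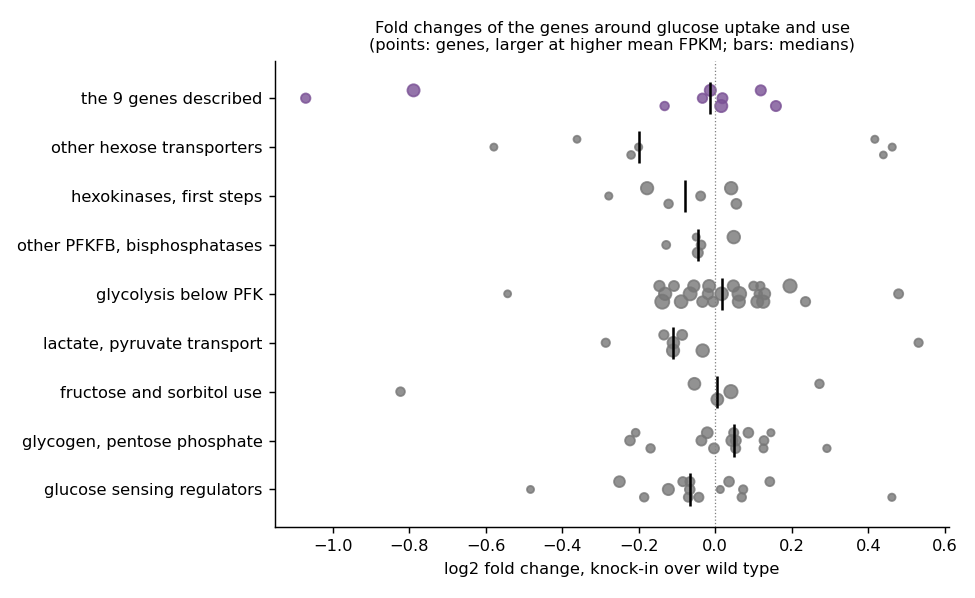
Log2 fold change, knock-in over wild type (horizontal axis), of the 9 genes described and of the 85 tested rows of 8 lists around glucose uptake and use. Points stand for rows, sized by mean FPKM, and bars for medians. None of the 85 rows was called by edgeR. Slc2a3 and Pfkm lie left of most of them at -0.79 and -1.07, which follows from the contrast that chose both genes.

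The genes whose values over the 6 libraries ran most like those of Slc2a3 were sought among 11448 genes with at least 5 CPM on average, by the root mean square difference of log2 CPM after centring each gene. The nearest were Rpl5, a ribosomal protein gene, at 0.109, Aym1 at 0.142 and Znfx1, a zinc-finger helicase gene, at 0.157. Rpl5 had 44.5, 34.0 and 32.1 CPM in the knock-in libraries and 62.9, 58.7 and 68.2 CPM in the wild-type libraries, so that knock-in library 3 was again the lowest. The genes nearest to Pfkm were less close: Unc45a, a myosin chaperone gene, at 0.251, Gm10131 at 0.269 and Cftr, a chloride channel gene, at 0.274. Cftr had 5.01, 12.6 and 11.4 CPM in the knock-in libraries and 19.4, 14.6 and 20.2 CPM in the wild-type libraries. Slc2a3 and Pfkm differed from each other by 0.415 on this measure. All of these values come from the same 6 libraries, and the measure was not tested.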

How the data were processed

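Total RNA of whole testis was sequenced after a strand-specific preparation, per the labels' protocols. The authors deposited whole-number counts per gene, noncoding transcript or circle, with FPKM for linear RNAs and RPM for circles, per the file headers. The authors' deposited means per genotype (a signal value with a small number in place of 0), log2 ratios and p-values were not used. The submitters' processing notes name mm10. For the aligner, counter, annotation, strand setting and test: not given in the sources used here.

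Counts of 3 knock-in and 3 wild-type libraries were compared over all features of each table with edgeR 4.0.16 (quasi-likelihood test, TMM, filterByExpr with minimum count 10 and minimum total 15; circles above 0 in at least 3 libraries) and limma 3.58.1 in R 4.3.3. P-values are two-sided with Benjamini-Hochberg adjustment, and features were called at an adjusted p under 0.05. Standard errors were derived from the F statistic. The fit was also run on simulated counts with the same dispersion for all genes, so that run does not cover the spread of the real counts. DESeq2 1.42.0 and the other settings in the closing section were alternatives. No library repeated another (chi-square per degree of freedom of 5.42 to 10.4 within genotypes).

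The genes and lists were chosen with earlier results of these data known. Named are the 9 genes, the 3 genes with the highest FPKM of each list, called list genes, the 3 nearest genes by pattern, and transcripts averaging at least 10 counts.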

Additional observations from a re-analysis of the deposited data

How the results depend on the processing

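Slc2a3 and Pfkm had a log2 fold change below 0 under all 13 alternatives, from -0.93 to -0.64 and from -1.32 to -0.87. Slc2a3 was called in 10 of them and Pfkm in 7, and nothing is read from these counts, since the same contrast chose both genes. The exceptions for Pfkm were limma on log2(FPKM + 0.1) (-1.06) and on log2(FPKM + 1) (-0.93) and the fits without any 1 wild-type library or knock-in library 3, and those for Slc2a3 the fits without any 1 wild-type library. None of the other 7 genes was called in any of the 13. The share of Slc2a3 differed by -11.2 to -16.0 percentage points without 1 library and that of Pfkm by -4.88 to -7.29. On CPM per kilobase of implied length the differences were -13.8 and -6.45. That length is read back from the same FPKM, so this setting does not check the length.

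Over all genes 155 were called, against 456 with DESeq2, 251 and 263 with limma at pseudocounts of 0.1 and 1, 84 with the trend on implied length removed, and 11 to 125 without 1 library. The 11 came without knock-in library 3, 32 and 20 without wild-type library 2 or 3, and 74 without wild-type library 1. Noncoding calls numbered 9, against 129 without a filter, 110 with DESeq2, and 6 to 15 without 1 library (15 without knock-in library 3). The lists around glucose use held 0 to 1 calls and the circles 0 to 1 without 1 library, the 1 call of each coming without knock-in library 2. The cause of these shifts was not tested.

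The labels number the libraries 1 to 3 in both genotypes without saying that a number marks a shared litter or day. Deviations of same-numbered libraries correlated at 0.14, 0.11 and 0.01, and those of differently numbered libraries at -0.15 to 0.04. Each knock-in library correlated best with the wild-type library of its own number, for number 3 by little (0.0148 against 0.0116). Wild-type library 3 correlated best with knock-in library 2 (0.039). Whether the numbers mark a pairing cannot be told from so few libraries. With the replicate block 178 genes, 2 noncoding transcripts and 0 circles were called. The genes called there include Slc2a3 (log2 fold change -0.81) and Pfkm (-1.10), which this same contrast had chosen.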
